A study of Mus musculus with 12 samples.

Results

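The genes described here were 41 heart field and cardiac muscle genes of the early mouse embryo, of 22467 transcripts in the deposited table. They were chosen by name with earlier results of these data known, so the list is not independent of the values below. Symbols were matched through the GENCODE annotation of GRCm38, and every one of the 41 had its transcript in the table. They fell into 8 roles: 10 transcription factors, 6 thin filament genes, 6 thick filament and myosin light chain genes, 2 genes of titin and the M band, 7 genes of the Z disc, costamere and intermediate filaments, 5 genes of calcium handling and pacemaking, 2 myosin assembly factors and 3 secreted factors. They were measured by ribosome profiling and RNA-seq in 6 whole embryos at E8.5, 3 wild-type (Rpl10a +/+) and 3 homozygous for a loss-of-function allele of the large-subunit ribosomal protein RPL10A/uL1 (Rpl10a LOF/LOF). The LOF allele is a CRISPR/Cas9 deletion within the first intron that adds an N-terminal extension to an otherwise intact RPL10A/uL1, so that it lowers function and does not remove the protein. No embryos were pooled, and each of the 6 gave 1 library of ribosome-protected footprints (RPF) and 1 RNA library. Cycloheximide, which halts ribosomes on their mRNAs, was present from dissection on in both genotypes. An embryo is named here by its genotype and replicate number, and same-numbered embryos of the 2 genotypes are different animals.

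At E8.5 the mouse heart is a looping tube that has just begun to beat. Cells of the first heart field have made sarcomeres in the tube, while second heart field progenitors, marked by Isl1, are still being added to its ends. NKX2-5, GATA4, TBX5, MEF2C and HAND factors switch on the muscle genes together. In a sarcomere, myosin heavy and light chains form the thick filament, actin, tropomyosin and troponins form the thin filament, titin spans from Z disc to M band, and calcium released through RYR2 and pumped back by SERCA2 sets the beat. Ribosome profiling sequences the stretches of mRNA covered by ribosomes, so RPF counts on a coding sequence (CDS) report ribosomes on that mRNA, RNA counts report the mRNA, and their ratio, RPF/RNA, reports ribosomes per mRNA.

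The 6 RPF libraries held 7041357 to 10863499 counts and the 6 RNA libraries 9132521 to 26561843. Values are given as CPM, counts scaled to a common library total by edgeR with its TMM factor. The test took in the 12576 transcripts that exceeded 0.75 CPM in 3 or more RPF libraries, among them 40 of the 41 genes. A gene was called changed at a false discovery rate (FDR, Benjamini-Hochberg adjusted p over all 12576) below 0.1 in edgeR's quasi-likelihood test. RPF of Rpl10a itself fell by 0.64 on the log2 scale in LOF/LOF embryos, from 1574, 1607 and 1683 CPM to 1120.1, 1038 and 933 (standard error 0.07, FDR = 0.00689). Summed CPM of 4 Y-linked genes was at least 154 in both libraries of every wild-type embryo and of LOF/LOF replicate 2, and at most 9.09 in LOF/LOF replicates 1 and 3, so that genotype and sex overlap in part.

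A part of the heart genes was called higher in LOF/LOF embryos in RPF and in RNA, and none was called lower. In RPF, 12 of the 40 tested genes rose (30% against 1.05% of all tested transcripts called higher): Tnnt2, Tnni1, Tpm1, Actc1, Myh6, Myh7, Myl4, Myom1, Ryr2, Slc8a1, Smyd1 and Unc45b. In RNA, 17 of 40 rose (42.5% against 1.77% of all): Tnnt2, Actc1, Myh6, Myh7, Myl4, Myom1, Ryr2, Slc8a1, Smyd1 and Unc45b again, and besides them Tbx5, Myocd, Tnnc1, Myl7, Ttn, Nebl and Ldb3. An unadjusted p below 0.05 was reached by 27 of the 40 in RPF and 25 in RNA (13.7% and 17% of all transcripts). The changes were modest in size. The median log2 fold change of the 40 genes was 0.37 in RPF and 0.27 in RNA, where the median of all tested transcripts was 0.00 in both. All but 1 of the 40 RPF values (Atp2a2) and all 40 RNA values were above 0, against 50.9% and 49.4% of all transcripts. In 23 genes every LOF/LOF embryo lay above every wild-type embryo in RPF (9.16% of all transcripts did), and in 25 genes in RNA (11.3% of all). In whole embryos, more heart cells and more of an mRNA per heart cell cannot be told apart.

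**Figure D1:**
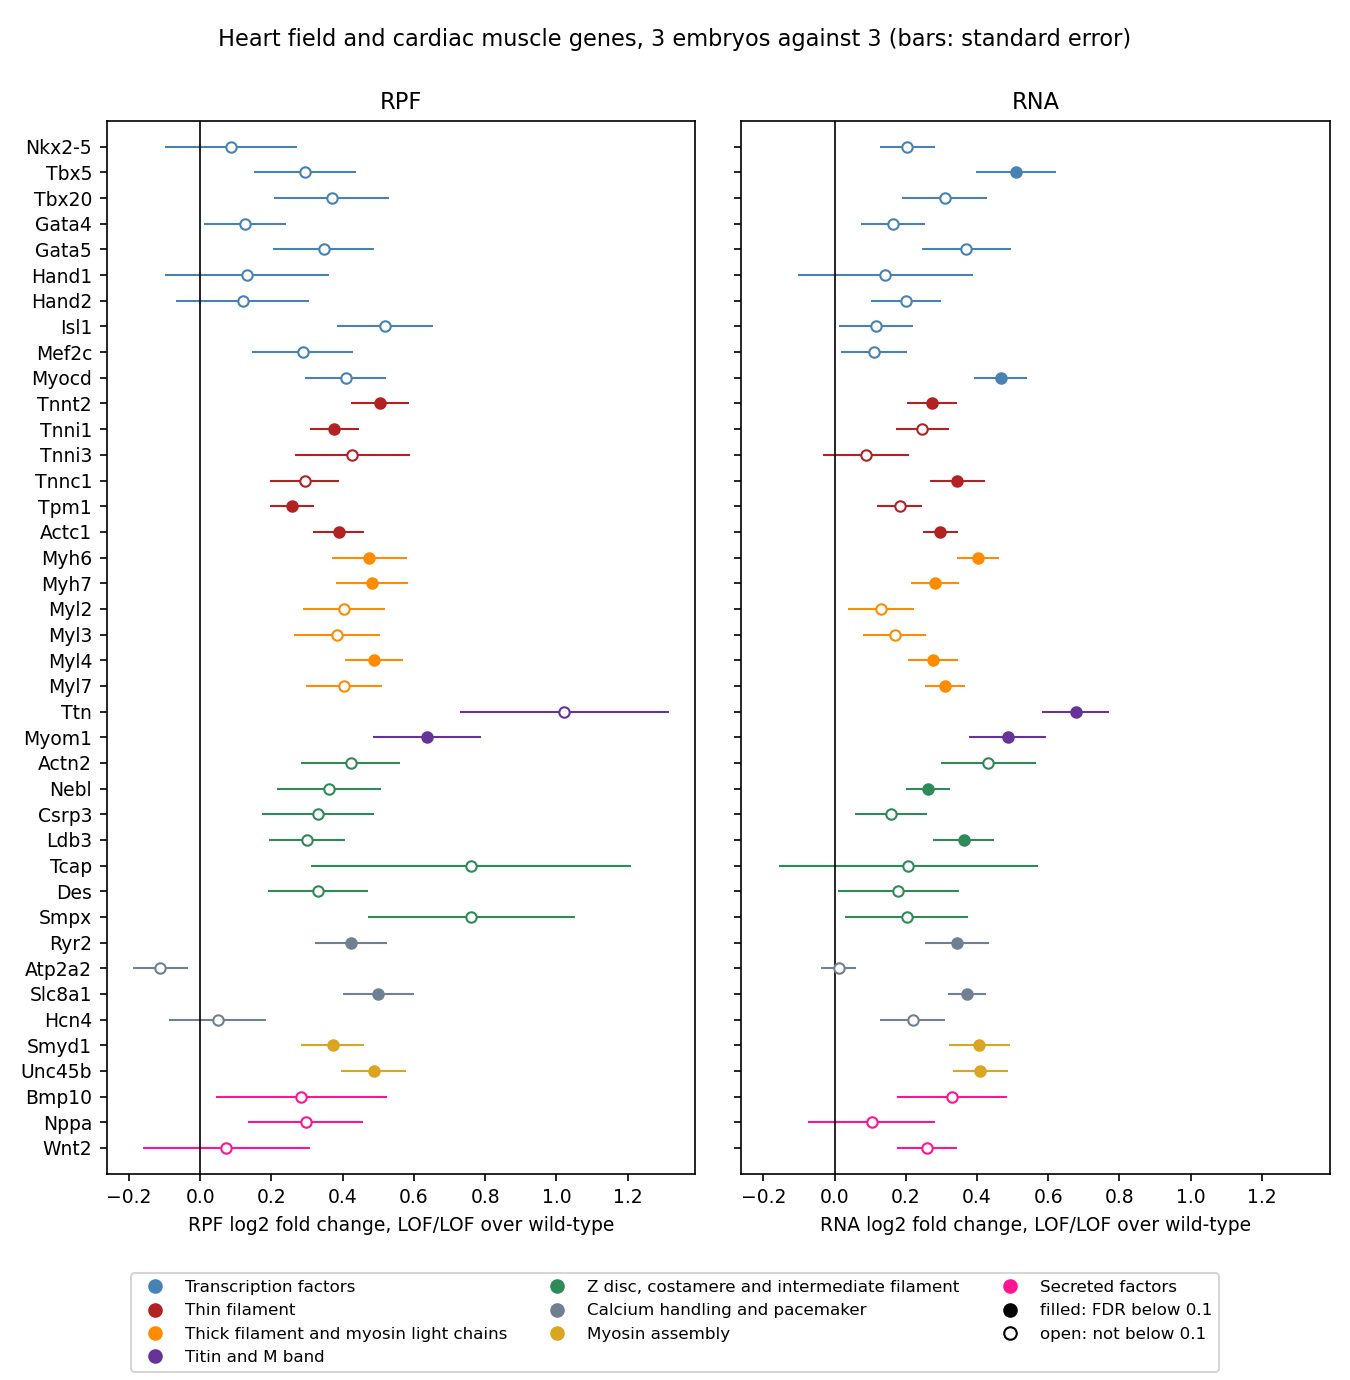
Log2 fold change of RPF (left) and RNA (right) in LOF/LOF over wild-type embryos for the 40 tested genes, coloured by role; bars are standard errors and filled points have an FDR below 0.1. Atp2a2 is the only RPF value below 0, the transcription factors hold no filled RPF point, and Ttn has the highest value in both panels.

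Other tissues of the whole embryo also differed between the genotypes. The 12 visceral endoderm markers, genes of the layer that covers the yolk sac, summed to 6899 to 9200 RPF CPM in wild-type and 2563 to 5286 in LOF/LOF embryos, and 9 of the 12 fell in RPF and 11 in RNA (1.15% and 3.25% of all transcripts were called lower). The 10 primitive erythroid markers, genes of the first blood cells, summed to 1413, 847 and 2862 RPF CPM in the 3 wild-type and 3586, 5845 and 3538 in the 3 LOF/LOF embryos, and 4 rose in RPF and 2 in RNA (1.05% and 1.77% of all transcripts were called higher). Wild-type replicate 3 stood nearest to the LOF/LOF embryos in both lists. The part that these differences, or the stage of each embryo, have in the heart gene values was not tested. Summed RPF of the heart genes other than transcription factors was 3697, 3975 and 4178 CPM in wild-type and 5406, 4899 and 4675 CPM in LOF/LOF embryos, and the 3 LOF/LOF sums lay above the 3 wild-type sums.

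**Figure D2:**
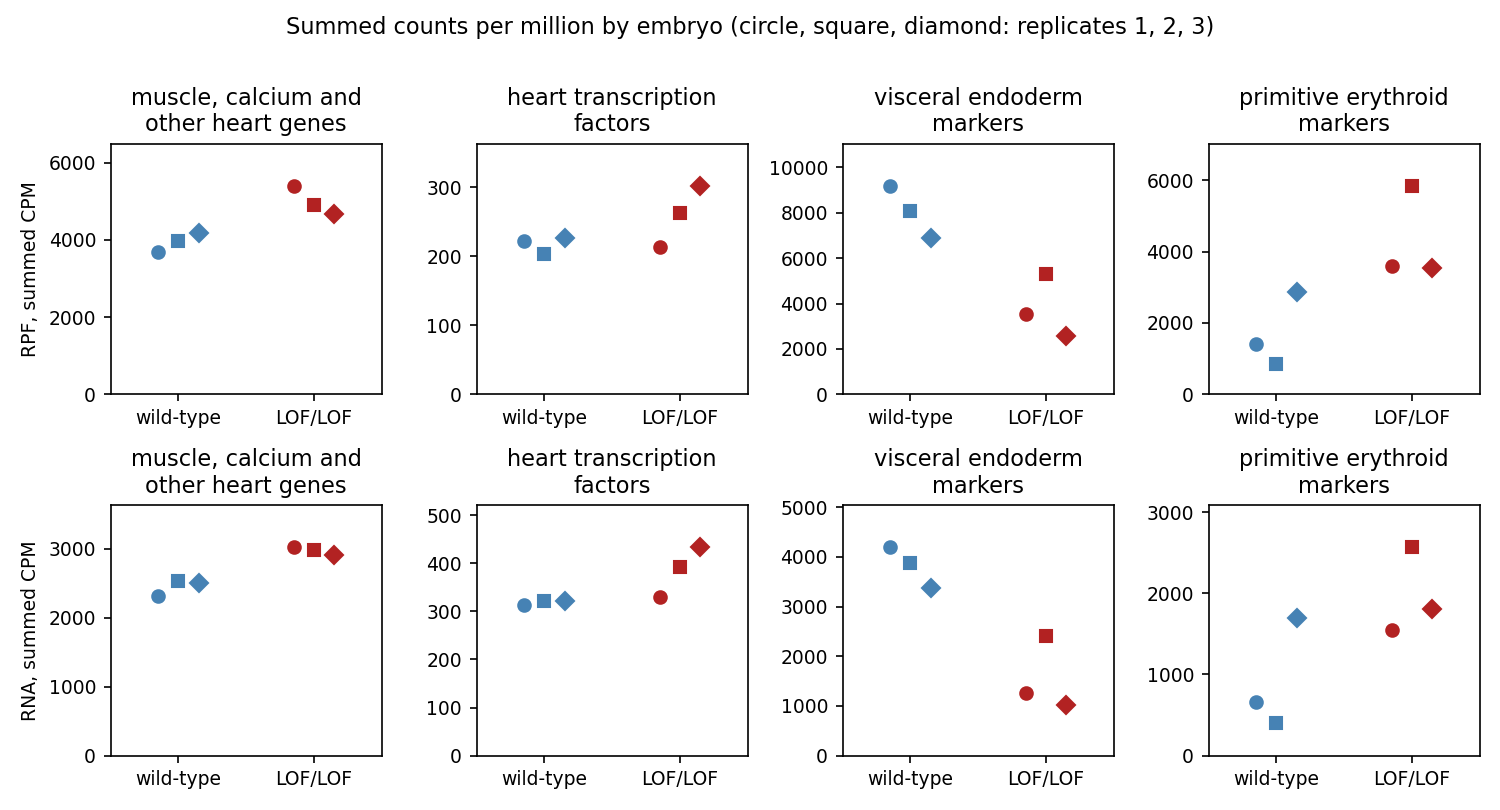
Summed CPM in each embryo, RPF above and RNA below, for the heart genes other than transcription factors, the 10 heart transcription factors, 12 visceral endoderm markers and 10 primitive erythroid markers. The genotypes do not overlap for the heart muscle and endoderm genes, while the RPF sums of the transcription factors overlap through LOF/LOF replicate 1.

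Among the transcription factors of the heart fields, none of the 10 was called in RPF (4 had an unadjusted p below 0.05), and 2, Tbx5 and Myocd, rose in RNA. All 10 had log2 fold changes above 0 in both, with medians of 0.29 in RPF and 0.20 in RNA. Myocd (myocardin), the coactivator of serum response factor that turns on muscle promoters, had 20.1, 19.6 and 22.6 RPF CPM in wild-type and 24.1, 28.1 and 29.5 in LOF/LOF embryos, and its RNA CPM were 22.5, 25.4 and 23.4 in wild-type and 33.9, 33.5 and 31.9 in LOF/LOF embryos. Every LOF/LOF embryo was above every wild-type embryo in both. Myocd RNA rose by 0.47 on the log2 scale (standard error 0.07, FDR = 0.0162), while its RPF log2 fold change was 0.41 (standard error 0.11, FDR = 0.135). Tbx5, a T-box factor of the first heart field and the atria, had RNA CPM of 8.35, 9.45 and 8.27 in wild-type and 12.7, 11.3 and 13.9 in LOF/LOF embryos, a rise of 0.51 (standard error 0.11, FDR = 0.0446). Its RPF values, 8.48, 7.0 and 8.05 RPF CPM in wild-type and 9.0, 9.41 and 10.2 in LOF/LOF embryos, were few but again did not overlap, with a log2 change of 0.29 (standard error 0.14, FDR = 0.407).

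Isl1, the LIM-homeodomain marker of second heart field progenitors, had 8.94, 10.5 and 9.09 RPF CPM in wild-type and 14.4, 14.1 and 12.3 in LOF/LOF embryos. The lowest LOF/LOF embryo was above the highest wild-type embryo, and the log2 fold change of 0.52 missed the threshold (standard error 0.13, FDR = 0.109). Isl1 RNA overlapped, at 12.6, 15.5 and 15.5 in wild-type and 17.2, 16.5 and 14.1 in LOF/LOF embryos (log2 fold change 0.12, standard error 0.10, FDR = 0.64). Mef2c, a MADS-box activator of muscle genes, overlapped in both, with 26.5, 28.8 and 24.2 RPF CPM in wild-type and 38.5, 25.5 and 32.9 in LOF/LOF embryos and RNA CPM of 17.0, 16.1 and 14.6 in wild-type and 18.5, 15.9 and 17.2 in LOF/LOF embryos. The log2 fold changes of Mef2c were 0.29 in RPF (FDR = 0.414) and 0.11 in RNA (FDR = 0.616). Nkx2-5, the homeobox factor that marks cardiac progenitors and muscle, had 6.82, 5.25 and 6.48 RPF CPM in wild-type and 5.22, 7.67 and 6.61 in LOF/LOF embryos with a log2 fold change of 0.09 (FDR = 0.89). Its RNA, at 15.9, 15.9 and 15.6 in wild-type and 18.9, 18.6 and 17.1 in LOF/LOF embryos, was higher in every LOF/LOF embryo, by 0.20, without passing the threshold (standard error 0.08, FDR = 0.212).

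The remaining 5 factors varied among the LOF/LOF embryos themselves. Hand1, a basic helix-loop-helix factor of the first heart field that is also strong in extraembryonic mesoderm, had 53.0, 46.7 and 52.9 RPF CPM in wild-type and 30.5, 59.5 and 74.1 in LOF/LOF embryos. LOF/LOF replicate 1 was below every wild-type embryo and replicates 2 and 3 were above, and the same order held in RNA, at 32.9, 32.2 and 34.2 in wild-type and 20.6, 42.1 and 49.1 in LOF/LOF embryos. Hand1 had log2 fold changes of 0.13 in RPF (standard error 0.23, FDR = 0.864) and 0.14 in RNA (standard error 0.24, FDR = 0.825). Hand2, its relative in the second heart field and right ventricle, had 5.99, 5.37 and 4.70 RPF CPM in wild-type and 4.64, 6.51 and 6.04 in LOF/LOF embryos, and RNA CPM of 42.0, 43.6 and 49.1 in wild-type and 45.2, 53.5 and 58.4 in LOF/LOF embryos (RPF log2 fold change 0.12, FDR = 0.844, and RNA 0.20, FDR = 0.343). Replicate 1 was again the lowest of the LOF/LOF embryos in both. The zinc finger factor Gata4 had 28.5, 24.7 and 29.3 RPF CPM in wild-type and 25.5, 31.1 and 32.4 in LOF/LOF embryos and RNA CPM of 44.4, 45.1 and 42.5 in wild-type and 42.7, 52.9 and 53.5 in LOF/LOF embryos. Gata5, which is also made in endocardium and endoderm, had 15.9, 14.7 and 15.9 RPF CPM in wild-type and 15.8, 19.4 and 23.0 in LOF/LOF embryos and RNA CPM of 19.9, 21.9 and 19.1 in wild-type and 22.7, 25.4 and 32.1 in LOF/LOF embryos. Tbx20, a T-box factor of myocardium and endocardium, had 47.9, 40.9 and 53.8 RPF CPM in wild-type and 45.3, 61.1 and 75.3 in LOF/LOF embryos and RNA CPM of 97.7, 95.9 and 98.3 in wild-type and 97.2, 123 and 147 in LOF/LOF embryos. In these 3 genes LOF/LOF replicate 1 lay within or just above the wild-type range and replicates 2 and 3 lay above it. The RPF log2 fold changes were 0.13 for Gata4, 0.35 for Gata5 and 0.37 for Tbx20 (FDR = 0.684, 0.307 and 0.342). Their RNA log2 fold changes were 0.16, 0.37 and 0.31 (FDR = 0.399, 0.164 and 0.216).

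All 6 thin filament genes had every LOF/LOF embryo above every wild-type embryo in RPF, and 4 of the 6 rose in RPF and 3 in RNA. Tnnt2 (ENSMUST00000188028.6, chromosome 1, 135836354 to 135852260, GRCm38), cardiac troponin T, which ties the troponin complex to tropomyosin, had 107, 115 and 122 RPF CPM in wild-type and 166, 173 and 146 in LOF/LOF embryos, a rise of 0.50 on the log2 scale or 1.42-fold (standard error 0.08, FDR = 0.0275), the lowest RPF FDR among the 40 genes. Its RNA CPM were 52.9, 53.5 and 59.6 in wild-type and 62.9, 71.4 and 68.0 in LOF/LOF embryos and rose by 0.27 (standard error 0.07, FDR = 0.072). The gap between the genotypes was thus wider in RPF than in RNA, a difference that was tested as RPF/RNA and was not called. Actc1 (ENSMUST00000090269.6), cardiac alpha-actin, had the highest RPF per kb of CDS of the whole set in wild-type embryos, 633 ± 15.7 CPM per kb (SD, n = 3). Actc1 had 665, 678 and 698 RPF CPM in wild-type and 974, 859.5 and 820.3 in LOF/LOF embryos and RNA CPM of 242, 233 and 247 in wild-type and 296, 310.0 and 284 in LOF/LOF embryos. Both rose without overlap, by 0.39 in RPF (standard error 0.07, FDR = 0.0437) and 0.30 in RNA (standard error 0.05, FDR = 0.0199).

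Tnni1, slow skeletal troponin I, the inhibitory troponin subunit of the embryonic heart, had 80.8, 84.3 and 81.2 RPF CPM in wild-type and 109, 101 and 107 in LOF/LOF embryos and RNA CPM of 45.3, 47.1 and 54.4 in wild-type and 57.9, 57.1 and 61.3 in LOF/LOF embryos. Its RPF rose by 0.38 (standard error 0.07, FDR = 0.0437), and its RNA, also without overlap, had a log2 change of 0.25 (standard error 0.07, FDR = 0.125). Tpm1, alpha-tropomyosin, which is also made in many non-muscle cells, had 429, 428 and 451 RPF CPM in wild-type and 492, 543 and 516 in LOF/LOF embryos and RNA CPM of 278, 283 and 316 in wild-type and 314, 339.7 and 349 in LOF/LOF embryos. The RPF rise of 0.26 was the smallest of the 12 called (standard error 0.06, FDR = 0.0901), and the RNA values overlapped (log2 fold change 0.18, standard error 0.06, FDR = 0.177). Tnnc1, the calcium-binding troponin C, had 49.1, 48.6 and 54.1 RPF CPM in wild-type and 67.2, 63.8 and 54.3 in LOF/LOF embryos and RNA CPM of 22.6, 24.3 and 24.1 in wild-type and 28.5, 31.8 and 30.7 in LOF/LOF embryos. Here the call was on the RNA side, a rise of 0.35 (standard error 0.08, FDR = 0.0482), while the RPF log2 fold change was 0.29 (standard error 0.10, FDR = 0.201) and LOF/LOF replicate 3 all but touched the highest wild-type embryo. Tnni3, the troponin I of the later heart, was low in both and not called (RPF log2 fold change 0.43, RNA 0.09).

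Promoters of some of these genes carry a CArG box, the element that serum response factor binds, with which myocardin acts. Windows of 300 bases, 250 before to 50 after each annotated start, were taken from RefSeq (GRCm38.p6). They gave 46 promoters for 35 of the 41 genes, and Tbx5, Gata4, Hand1, Myocd, Tcap and Atp2a2 had no entry. A CArG box on either strand was present in 7 of the 46 (15.2%, against 1.63% of all 32851 promoters), in 6 genes: Actc1, Myl7, Myl3, Ldb3, Myom1 and Nebl. They are shown because they are the promoters in which the set differs most in share from all promoters, with the motif in capitals, on the strand of the gene.
Actc1, chr2:114052903-114052932, minus strand: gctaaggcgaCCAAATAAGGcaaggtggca
Myl7, chr11:5898824-5898853, minus strand: ccattcctctCCTTATTTGGgcctctgggt
Myl3, chr9:110763583-110763612, plus strand: gagccaatgcCCTTTTATGGccctgtccct
Ldb3, chr14:34588697-34588726, minus strand: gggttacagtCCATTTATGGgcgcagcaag
Myom1, chr17:71019448-71019477, plus strand: gccttcctggCCATAAAAGGctggctgtgg
Nebl, chr2:17462999-17463028, minus strand: gctcccatctCCTAAATTGGctggaaatgc
The motif began at position -47 from the start for Actc1, -61 for Myl7, -85 for Myl3, -99 for Myom1 and -162 for Nebl, and at -35 and -109 from 2 starts of Ldb3. The Myl3 and Nebl stretches lie inside the counted transcripts of these genes, far downstream of their first base, and so belong to other starts than that of the counted mRNA. Of all 6 genes, Actc1 and Myom1 rose in RPF. In RNA Actc1, Myl7, Ldb3, Myom1 and Nebl rose, and Myl3 did not. Over the 40 tested genes, with or without the motif, 30% rose in RPF and 42.5% in RNA. Of all transcripts 1.05% and 1.77% did. On either strand, AGATAA, a motif of the zinc finger factors named above, was in 23.9% of the 46 promoters and 11.2% of all. The T-box motif AGGTGT was in 19.6% and 13.7%. The core promoter motif TATAAA was in 17.4% and 13.6%, and a MEF2 motif in 2.17% and 3.19%. A match is a run of letters and not a bound site, and these shares were not tested.

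Of the 6 thick filament and myosin light chain genes, 3 rose in RPF and 4 in RNA, and none of the 6 overlapped between the genotypes in RPF. The 2 heavy chains lie side by side on chromosome 14, Myh6 (alpha, ENSMUST00000081857.13) from 54941921 to 54966641 and Myh7 (beta, ENSMUST00000102803.10) from 54970684 to 54994626 in GRCm38. Of the 28-nt windows in their counted CDS, 36.9% for Myh6 and 37.0% for Myh7 also occur in another transcript, almost all of them in the other heavy chain, so reads from such stretches cannot be told apart and the split between the 2 genes is uncertain. Myh6 had 286, 306 and 328 RPF CPM in wild-type and 500.4, 367 and 404 in LOF/LOF embryos and RNA CPM of 92.2, 93.1 and 96.1 in wild-type and 128, 133 and 112 in LOF/LOF embryos. Both rose, by 0.48 (standard error 0.11, FDR = 0.0701) and 0.40 (standard error 0.06, FDR = 0.0118), and LOF/LOF replicate 1 was the highest in RPF but not in RNA. Myh7 had 226, 277 and 260.0 RPF CPM in wild-type and 392, 308 and 359.7 in LOF/LOF embryos and RNA CPM of 82.8, 99.9 and 97.1 in wild-type and 119, 117 and 108 in LOF/LOF embryos. Again neither overlapped, and the rises were 0.48 in RPF (standard error 0.10, FDR = 0.0572) and 0.28 in RNA (standard error 0.07, FDR = 0.0575).

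Myl4, the atrial essential light chain that the whole embryonic heart makes, had 113, 126 and 133 RPF CPM in wild-type and 184, 163 and 170.2 in LOF/LOF embryos and RNA CPM of 53.7, 58.1 and 65.2 in wild-type and 73.4, 74.8 and 68.1 in LOF/LOF embryos. The RPF rise of 0.49 (standard error 0.08, FDR = 0.0279) and the RNA rise of 0.28 (standard error 0.07, FDR = 0.0724) were both called. Myl7, the atrial regulatory light chain, was the most abundant mRNA of the set per kb of transcript and the highest of its role in RPF, at 562 ± 50.5 CPM per kb of CDS in wild-type embryos (SD, n = 3). It had 242, 258 and 289 RPF CPM in wild-type and 409, 313 and 316 in LOF/LOF embryos and RNA CPM of 112, 118 and 130.3 in wild-type and 153, 146 and 152 in LOF/LOF embryos. No embryo overlapped in either, yet only the RNA rise was called (0.31, standard error 0.06, FDR = 0.026), the RPF log2 fold change being 0.40 (standard error 0.11, FDR = 0.115) with LOF/LOF replicate 1 far above the others. The ventricular light chains Myl2 and Myl3 were not called, with RPF log2 fold changes of 0.40 and 0.38 and RNA log2 fold changes of 0.13 and 0.17.

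Ttn, titin, the giant spring of the sarcomere, had the largest log2 fold changes of the set, with a wide spread in RPF. Its RNA CPM were 301, 383 and 303 in wild-type and 579.7, 492 and 517 in LOF/LOF embryos, with no overlap, a rise of 0.68 or 1.60-fold (standard error 0.09, FDR = 0.00789). Its RPF were 134, 205 and 292 RPF CPM in wild-type and 593, 429 and 256 in LOF/LOF embryos. LOF/LOF replicate 3 fell within the wild-type range, and replicate 1 had more than the others of either genotype. The RPF log2 fold change of 1.02 therefore carried a large error and was not called (standard error 0.29, FDR = 0.146). Myom1, myomesin of the M band, had 17.3, 17.4 and 21.7 RPF CPM in wild-type and 32.9, 31.7 and 23.0 in LOF/LOF embryos and RNA CPM of 12.4, 12.8 and 15.7 in wild-type and 20.5, 19.7 and 17.4 in LOF/LOF embryos. It rose in both, by 0.64 (standard error 0.15, FDR = 0.0855) and 0.49 (standard error 0.11, FDR = 0.0453), and its 3 LOF/LOF embryos were in the same order as those of Ttn in RPF, replicate 1 first and replicate 3 last.

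Z disc, costamere and intermediate filament genes gave no RPF call among 7 (5 had an unadjusted p below 0.05) and 2 RNA calls, Nebl and Ldb3, though all 7 log2 fold changes were above 0 in each. Ldb3 (cypher), a PDZ-LIM protein that binds alpha-actinin, had RNA CPM of 14.2, 17.2 and 17.0 in wild-type and 21.8, 20.9 and 20.5 in LOF/LOF embryos, a rise of 0.36 (standard error 0.09, FDR = 0.0591). Its RPF, 25.5, 22.9 and 22.2 RPF CPM in wild-type and 27.7, 31.6 and 27.1 in LOF/LOF embryos, did not overlap either, with a log2 change of 0.30 (standard error 0.11, FDR = 0.237). Nebl was represented by a short transcript with a CDS of 813 nt. Nebl RNA, at 51.1, 56.3 and 51.5 in wild-type and 65.4, 66.5 and 59.6 in LOF/LOF embryos, rose by 0.26 (standard error 0.06, FDR = 0.0562), and its RPF overlapped, at 13.5, 16.1 and 12.2 RPF CPM in wild-type and 17.0, 15.7 and 20.3 in LOF/LOF embryos (log2 fold change 0.36, standard error 0.15, FDR = 0.299). Desmin (Des), the muscle intermediate filament and the highest of this role per kb of CDS, had 68.8, 81.4 and 94.9 RPF CPM in wild-type and 91.6, 89.8 and 123 in LOF/LOF embryos and RNA CPM of 31.5, 34.7 and 44.7 in wild-type and 36.1, 37.4 and 55.4 in LOF/LOF embryos. In Des the highest wild-type embryo, replicate 3, overlapped the lower LOF/LOF embryos in both (RPF log2 fold change 0.33, standard error 0.14, FDR = 0.329). Actn2, Csrp3, Smpx and Tcap had RPF log2 fold changes of 0.42, 0.33, 0.76 and 0.76, the last from 4 to 15 wild-type RPF counts.

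Of the 4 tested calcium genes, 2 rose in both measurements. Ryr2, the release channel of the sarcoplasmic reticulum, had 27.3, 33.2 and 31.6 RPF CPM in wild-type and 43.1, 39.9 and 39.5 in LOF/LOF embryos and RNA CPM of 43.0, 54.0 and 43.0 in wild-type and 61.7, 62.4 and 55.3 in LOF/LOF embryos. It rose without overlap in both, by 0.42 (standard error 0.10, FDR = 0.0855) and 0.34 (standard error 0.09, FDR = 0.0808). Slc8a1, the sodium-calcium exchanger NCX1, needed for the embryonic heartbeat, had 118, 127 and 137 RPF CPM in wild-type and 208, 160.2 and 168 in LOF/LOF embryos and RNA CPM of 53.1, 59.0 and 58.5 in wild-type and 75.3, 74.8 and 72.8 in LOF/LOF embryos. Its rises of 0.50 (standard error 0.10, FDR = 0.0562) and 0.37 (standard error 0.05, FDR = 0.0101) were called too. Atp2a2, the calcium pump SERCA2 of the reticulum, which non-muscle cells make as well, had 847, 877 and 871 RPF CPM in wild-type and 711, 873 and 799.9 in LOF/LOF embryos and RNA CPM of 689, 750.3 and 719 in wild-type and 747, 744 and 699 in LOF/LOF embryos. It was the highest of this role per kb of CDS and the 1 gene with an RPF log2 fold change below 0, at -0.11 (standard error 0.08, FDR = 0.567), beside an RNA value of 0.01 (standard error 0.05, FDR = 0.932), and the genotypes overlapped in both. Hcn4, the pacemaker channel, was not called, with log2 fold changes of 0.05 in RPF and 0.22 in RNA. Pln, phospholamban, the inhibitor of SERCA2, did not pass the filter, with at most 4 RPF counts in any library, and has no fold change here.

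Both myosin assembly factors rose in both measurements. Unc45b, the chaperone that folds the myosin motor domain, had 54.6, 63.6 and 59.5 RPF CPM in wild-type and 90.3, 76.8 and 80.3 in LOF/LOF embryos and RNA CPM of 26.7, 29.4 and 31.6 in wild-type and 39.4, 39.2 and 39.1 in LOF/LOF embryos. The 3 LOF/LOF RNA values were almost equal, and all 6 LOF/LOF values exceeded the wild-type ones. Unc45b rose by 0.49 in RPF (standard error 0.09, FDR = 0.0437) and 0.41 in RNA (standard error 0.08, FDR = 0.0272). Smyd1, a methyltransferase of heart and skeletal muscle that acts in myofibril assembly, had 27.7, 27.0 and 26.2 RPF CPM in wild-type and 35.6, 34.9 and 33.7 in LOF/LOF embryos and RNA CPM of 13.2, 15.4 and 15.7 in wild-type and 20.2, 19.4 and 20.2 in LOF/LOF embryos. No overlap was seen, with rises of 0.37 (standard error 0.09, FDR = 0.0855) and 0.41 (standard error 0.08, FDR = 0.0392). Among the 3 secreted factors none was called (0 in RPF and 1 in RNA had an unadjusted p below 0.05). Nppa, atrial natriuretic peptide and the highest of these per kb, had 6.36, 6.54 and 7.0 RPF CPM in wild-type and 7.84, 9.41 and 7.08 in LOF/LOF embryos and RNA CPM of 4.23, 3.14 and 2.99 in wild-type and 3.27, 3.78 and 3.83 in LOF/LOF embryos (RPF log2 fold change 0.30, standard error 0.16, FDR = 0.46, and RNA 0.10, standard error 0.18, FDR = 0.824). Bmp10, which keeps trabecular muscle dividing, and Wnt2, a ligand of the posterior heart field, had RPF log2 fold changes of 0.28 and 0.07.

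**Figure D3:**
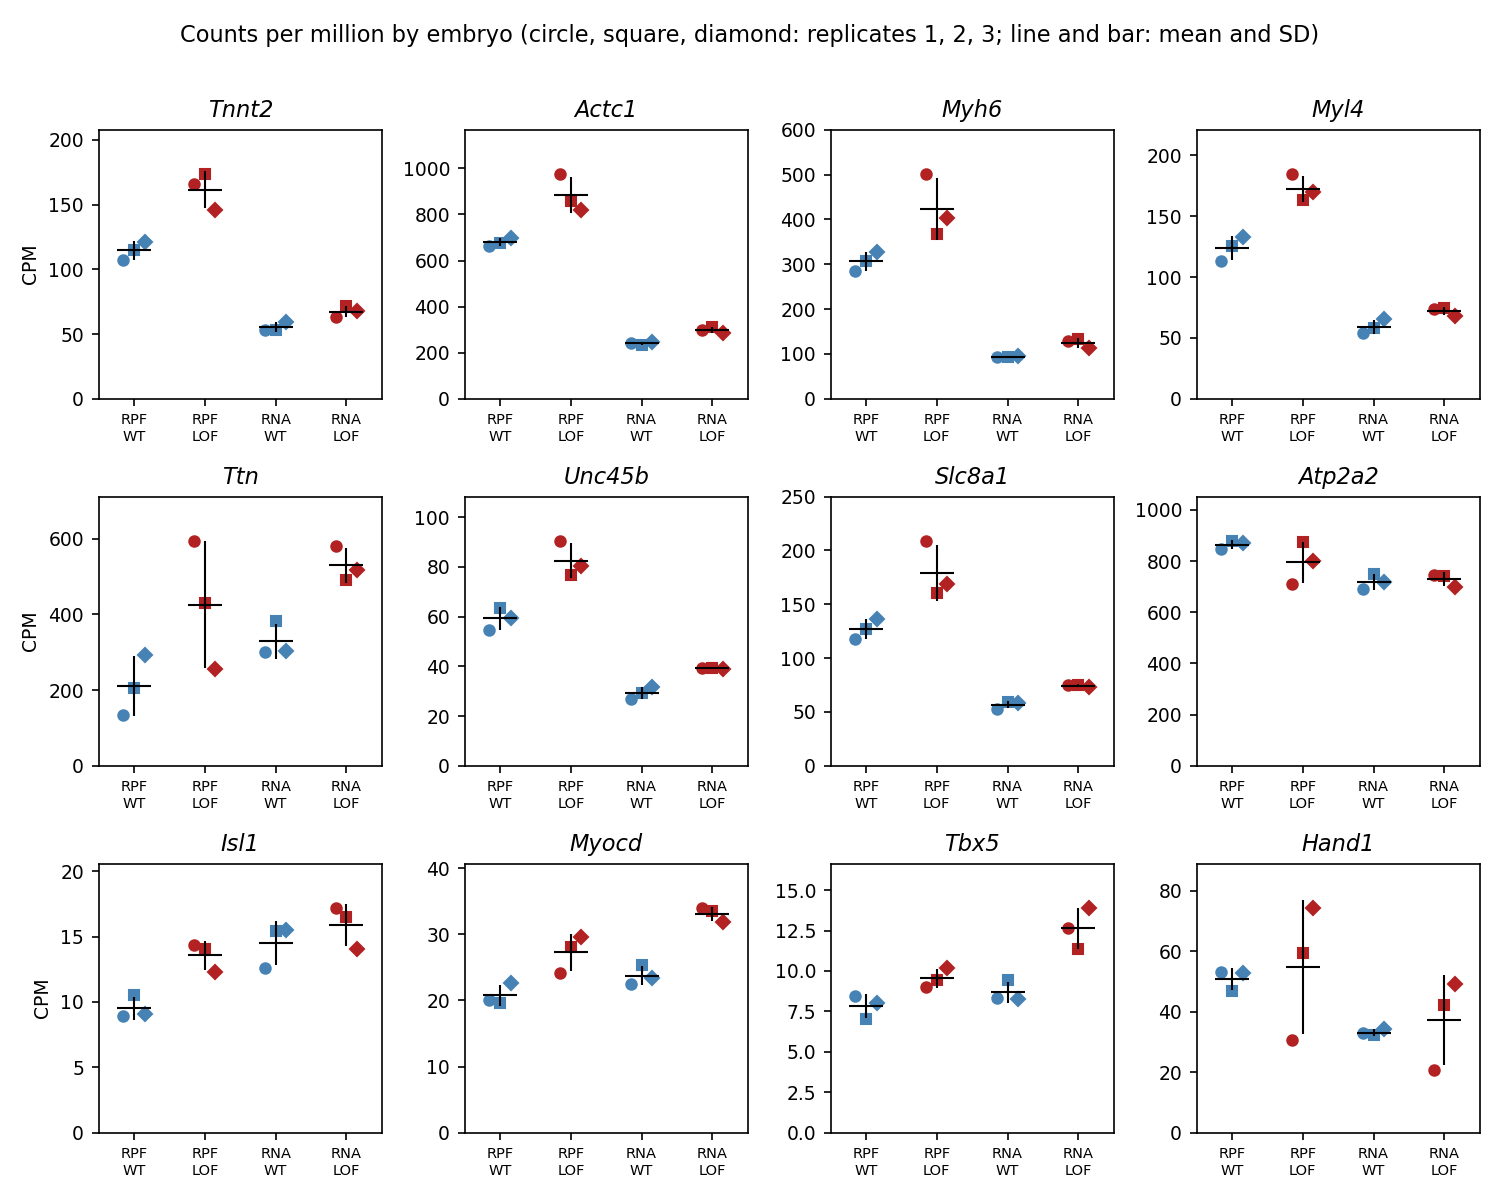
CPM by embryo for 12 heart genes, RPF and RNA, with the mean and SD of 3 embryos for each genotype (blue wild-type, red LOF/LOF). Tnnt2, Actc1, Myh6, Myl4, Unc45b and Slc8a1 do not overlap in either measurement, Atp2a2 overlaps in both, and LOF/LOF replicate 1 (circle) is lowest for Hand1 and highest for Ttn in RPF.

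The muscle genes and the transcription factors ordered the LOF/LOF embryos differently. For each embryo the median log2 difference from the wild-type mean was taken over the genes of a role, on the log2(CPM + 1) scale. Over the genes other than transcription factors it was 0.48, 0.33 and 0.31 in RPF for LOF/LOF replicates 1, 2 and 3, and 0.28, 0.33 and 0.25 in RNA. Over the 10 transcription factors it was -0.02, 0.26 and 0.34 in RPF and 0.18, 0.29 and 0.39 in RNA. LOF/LOF replicate 1 was thus the highest embryo for muscle RPF and the lowest LOF/LOF embryo for the transcription factors. Its transcription factor median lay in the range of the wild-type embryos in RPF (0.05, -0.10 and 0.05) and above all 3 of them in RNA (-0.02, 0.03 and -0.02). This embryo also had the lowest RPF total, 7041357 counts. The order is a description of 3 embryos and was not tested.

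**Figure D4:**
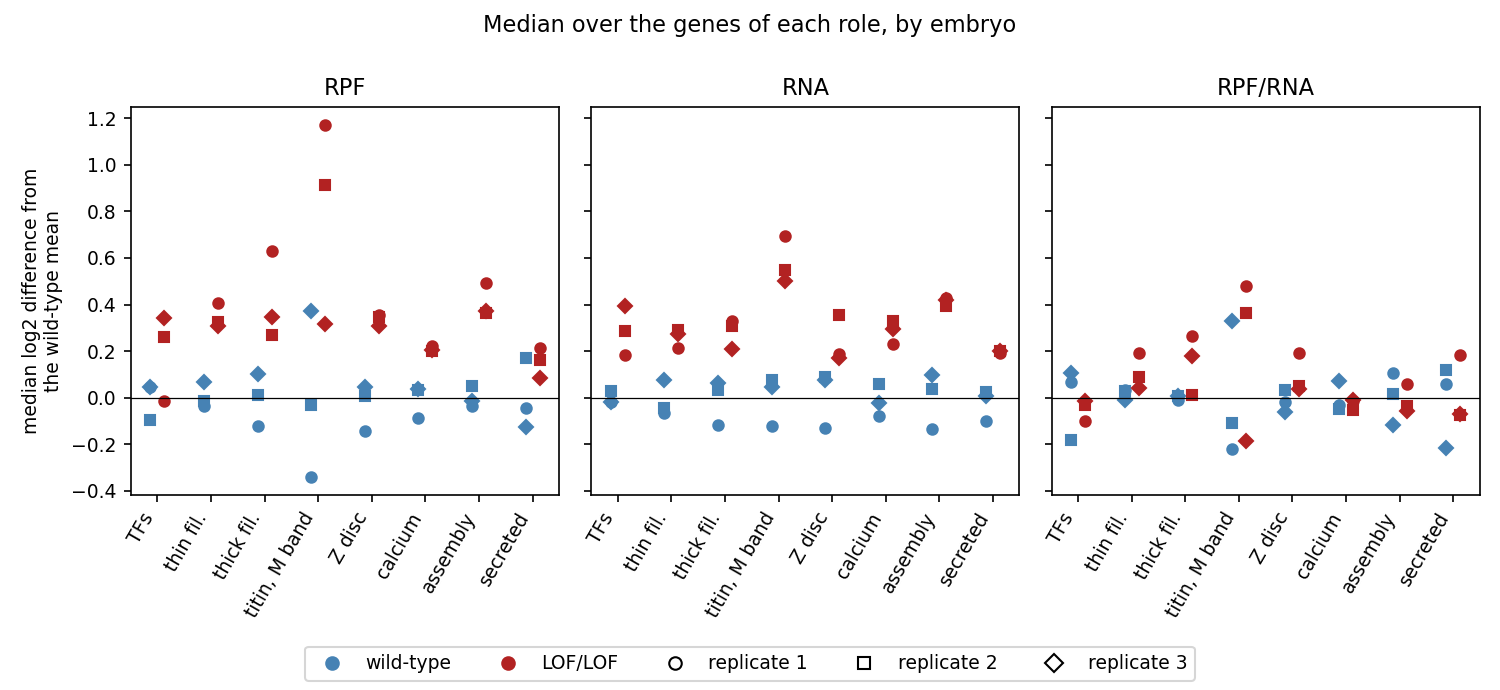
Median log2 difference from the wild-type mean over the genes of each of the 8 roles, for each embryo, in RPF, RNA and RPF/RNA. LOF/LOF embryos lie above the wild-type embryos in RNA for every role; in RPF the transcription factor medians overlap through LOF/LOF replicate 1, those of titin and the M band overlap at replicate 3, and those of the secreted factors overlap; in RPF/RNA the LOF/LOF medians clear the wild-type ones by narrow margins for the thin filament, thick filament and Z disc genes and overlap for the other 5 roles.

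RPF/RNA was fitted to the 12 libraries at once, with a term for a genotype difference in RPF beyond that in RNA. It gave no call at an FDR below 0.1 in edgeR among the 40 genes or among all 12576 transcripts (0%), where 1 of the 40 and 559 of the 12576 (4.44%) had an unadjusted p below 0.05. DESeq2 called 4 transcripts (0.0318%), none of them a heart gene. The 1 gene was Isl1. Its RPF/RNA ratio, each per kb, was 1.67 ± 0.164 in wild-type and 2.17 ± 0.0439 in LOF/LOF embryos (SD, n = 3), a log2 difference of 0.40 (standard error 0.17, unadjusted p = 0.0307 and FDR = 1.00 in edgeR's test). The median RPF/RNA log2 change was 0.08 over the 40 genes and 0.01 over all transcripts. Without LOF/LOF replicate 1 the median of the 40 was 0.03, and without LOF/LOF replicate 2 it was 0.13. With all embryos it was -0.03 over the transcription factors, with 7 of 10 below 0, and 0.13 over the 25 tested sarcomere and calcium genes, with 20 above 0 (52% of all transcripts were). Every LOF/LOF embryo lay above every wild-type embryo for Isl1, Tnni3, Myl2, Myl4 and Smpx (5.65% of all transcripts did), and below for Hcn4 (6.46% of all). By embryo the median over the genes other than transcription factors was 0.22, -0.03 and 0.02 in LOF/LOF replicates 1, 2 and 3 and 0.00, 0.01 and 0.00 in wild-type, with replicate 1 well above, replicate 3 just above and replicate 2 below the wild-type medians. Over the 25 sarcomere and calcium genes it was 0.25, 0.05 and 0.04 in LOF/LOF and -0.01, 0.00 and 0.01 in wild-type embryos, where all 3 LOF/LOF medians lay above the wild-type ones and replicate 1 was the highest. Within roles, the median was 0.19, 0.09 and 0.04 for the thin filament and 0.26, 0.01 and 0.18 for the thick filament genes in the same 3 embryos, and -0.01 to 0.03 in the wild-type embryos. With each embryo as a block, since its 2 libraries share a lysate, there was again no call, and 4 of the 40 genes had an unadjusted p below 0.05 (6.94% of all transcripts did).

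In wild-type embryos the genes spanned a wide range of RPF/RNA, from 0.477 to 5.52. With RPF per kb of counted CDS and RNA per kb of transcript, the median ratio was 2.85 over the 40 genes, 3.47 over the 21 sarcomere and cytoskeleton genes and 1.93 over the 10 transcription factors, where it was 1.76 over all tested transcripts. Actn2 (5.52 ± 1.71, SD, n = 3), Myl2 (5.42 ± 0.372), Des (4.98 ± 0.258), Myl3 (4.74 ± 0.399) and Hand1 (4.70 ± 0.246) had the highest ratios. The lowest were Hand2 (0.477 ± 0.0935), Ttn (0.65 ± 0.278), Nkx2-5 (0.665 ± 0.0907), Hcn4 (0.677 ± 0.0361) and Ryr2 (0.749 ± 0.073). Neighbours in this order overlap within 1 SD throughout the 5 highest and throughout the 5 lowest. The ratio rests on the annotated model, which for Ttn is CDS alone and for Myl3 has no 3′ UTR, and on a length that ignores other isoforms. Without the length terms the medians were 0.714 over the transcription factors, 1.76 over the other tested heart genes and 0.827 over all tested transcripts, so that the transcription factors lay below the median of all transcripts on that scale and above it per kb.

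**Figure D5:**
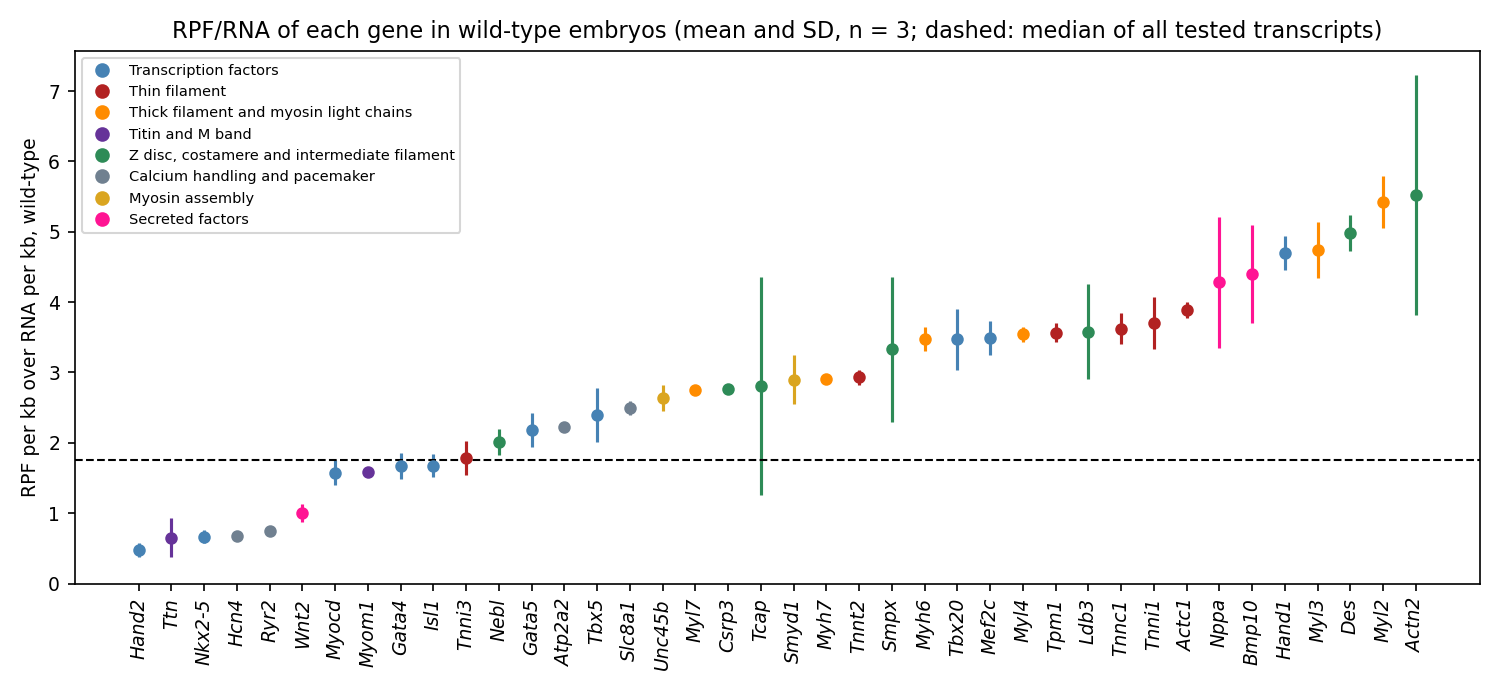
RPF per kb over RNA per kb for each gene in wild-type embryos, mean and SD of 3, ordered and coloured by role, with the median of all tested transcripts (1.76) dashed. Thin filament, thick filament and Z disc genes lie above the dashed line, and the transcription factors run from Hand2 at 0.477 to Hand1 at 4.70.

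Hand1 and Hand2 stood far apart in this ratio, and their start codon contexts are shown for that reason with those of other genes at both ends of the order. Each run is 10 bases before the annotated start codon, the ATG in capitals, and the 3 bases after it, from the GENCODE transcript.
Hand1: cctctccaacATGaac
Des: cgccgccaccATGagc
Myl2: ctcagacaccATGgca
Myl3: ctacgctccaATGgcc
Actn2: acccagcgccATGaat
Hand2: ggaaggcgagATGagt
Nkx2-5: cgtcgccaccATGttc
Hcn4: ccctggcaccATGgac
Ryr2: gcgcggagccATGgct
Of these 9, all but Myl3 have A or G at the third base before the ATG, as do 37 of the 39 tested genes with such a context (94.9%, against 87.1% of all transcripts). Hand2 has a 5′ UTR of 924 nt with 5 upstream ATGs, and Hand1 one of 261 nt with 1. An upstream ATG occurs in 8 of the 10 transcription factors (80%), in 7 of 19 sarcomere and cytoskeleton genes with a 5′ UTR of 20 nt or more (36.8%), and in 51.6% of all transcripts. These shares were not adjusted for 5′ UTR length. Its median was 384.5 nt for the transcription factors, 155 nt for the sarcomere and cytoskeleton genes and 175 nt for all tested transcripts. These are features of the annotated transcripts, and their bearing on the ratio was not tested.

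A second list of 65 further cardiac genes, also chosen with earlier results known and 58 of them tested, gave calls in 1 direction. In RPF 4 rose (6.90%, against 1.05% of all) and in RNA 6 (10.3%, against 1.77%), none was called lower, and the median log2 fold changes were 0.28 and 0.17. In each, 52 values were above 0 and 6 below. Dmd, dystrophin of the costamere, was lower in every LOF/LOF embryo in both without being called, at 25.8, 20.0 and 21.7 RPF CPM in wild-type and 17.0, 17.8 and 17.0 in LOF/LOF embryos and RNA CPM of 23.5, 21.9 and 21.8 in wild-type and 18.7, 20.2 and 16.7 in LOF/LOF embryos. Its log2 fold changes were -0.38 in RPF (standard error 0.12, FDR = 0.192) and -0.27 in RNA (standard error 0.09, FDR = 0.154), and it was named after its values were seen. Tmod1, which caps the pointed end of the thin filament, had 13.1, 15.9 and 15.5 RPF CPM in wild-type and 25.7, 25.9 and 26.6 in LOF/LOF embryos, a rise of 0.83 or 1.78-fold (standard error 0.11, FDR = 0.0161). Mybpc3, cardiac myosin-binding protein C, had 114, 126 and 127 RPF CPM in wild-type and 177, 165 and 161 in LOF/LOF embryos and RNA CPM of 49.9, 58.4 and 60.3 in wild-type and 72.2, 76.1 and 75.9 in LOF/LOF embryos, with rises of 0.46 and 0.39 (FDR = 0.0253 and 0.0235). No embryo overlapped for either gene. Asb2, a ubiquitin ligase subunit of muscle, rose in RPF by 0.58 (FDR = 0.0437), and Nexn, a Z disc protein, was the other RPF call. In RNA, Xirp1, an intercalated disc protein, rose by 0.61 and Jph2, which joins the reticulum to the surface membrane, by 0.44 (FDR = 0.0152 and 0.0396), and Nexn, Tmod1 and Synpo2l rose as well.

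The number of calls leaned on single embryos more than the values did. Without wild-type replicate 1, none of the 40 genes was called in RPF by edgeR (0.0795% of all transcripts were called higher), and 20 had an unadjusted p below 0.05 (8.61% of all did). Without wild-type replicate 2 none was called either (0.0318% of all), and 22 had such a p (8.77% of all). There were 3 calls without wild-type replicate 3 (0.533% of all) and 3 without LOF/LOF replicate 3 (0.207%), and 22 without LOF/LOF replicate 2 (5.07%). In RNA there were 5 calls without wild-type replicate 1 (0.413% of all) and 11 without LOF/LOF replicate 2 (1.18%). By gene, over the 6 fits that left out an embryo, the RPF call held most often for Tnnt2, in 4. For Myh7, Ryr2 and Smyd1 it held in 1. The RNA call held in all 6 for Myocd, Actc1, Myh6, Ttn and Slc8a1, and in 1 for Myl4 and Ryr2. The median log2 fold change of the 40 genes stayed between 0.35 and 0.41 in RPF and between 0.23 and 0.30 in RNA in the fits that left out an embryo. With a covariate for the Y-linked genes, 1 gene was called in RPF (Tnnt2, where 0.27% of all were called higher) and 1 in RNA (Myh6, 0.183% of all), with medians of 0.33 and 0.31.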

How the data were processed

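RPF and RNA libraries of 6 whole E8.5 embryos, 3 per genotype, were assigned by the labels. The authors trimmed and filtered reads (UMI-tools, FASTX-Toolkit, cutadapt), removed rRNA, tRNA and snRNA reads found by bowtie2, aligned what was left to GENCODE transcripts of GRCm38/mm10 with an aligner not named for that step, and removed PCR duplicates by molecular identifiers. How reads that match several transcripts were treated is not given in the sources used here. The deposited values are raw counts: A-site counts in the CDS without its first 15 and last 5 codons for RPF libraries, and counts over the whole transcript for RNA libraries.

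Filter (above 0.75 CPM in 3 RPF libraries) and threshold (FDR below 0.1) follow the study's methods. Counts were TMM-normalized separately for RPF and RNA and compared by genotype alone in R 4.3.3 with the quasi-likelihood test of edgeR 4.0.16, in place of the study's voom, limma, sva and locfdr steps, whose design is not stated. Settings tried were RLE size factors, DESeq2 1.42.0, limma-voom 3.58.1, sva 3.50.0 (RPF and RNA only), other filters, a Y-linked covariate, replicate and embryo blocks, and each embryo left out. RPF and RNA of the same embryo deviated together from their group means (r = 0.19 to 0.40 across transcripts), which is the pairing behind the embryo block. The steps were tested on simulated data, where in the 1 draw made the share of RPF calls that were unchanged transcripts was above the nominal FDR. In that draw most of the smaller changes put in were not recovered in RPF/RNA, so the lack of RPF/RNA calls does not show that ratios were equal. All 41 transcripts were matched by exact identifier to GENCODE, in GRCm38, for symbols and positions.

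The genes, roles and marker lists were chosen with earlier results of these data known. Values by embryo are given for each gene past the threshold in RPF, RNA or RPF/RNA, each tested transcription factor and the gene highest in RPF per kb in each other role. Of the further cardiac genes, the 3 with the lowest p among those called are named in each comparison, and the other called genes were named after their values were seen. Depth limits the low genes: Tcap had as few as 4 wild-type RPF counts.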

Additional observations from a re-analysis of the deposited data

How the results depend on the processing

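RLE size factors, DESeq2, limma-voom, a filter over 5 CPM and no filter left the number of heart genes called within 1.5 times of 12 in RPF and 17 in RNA, and all were higher. The covariate for Y-linked genes left 1 heart gene in RPF and 1 in RNA, 1 and 0 further cardiac genes, and 44, 42 and 2 transcripts in all in RPF, RNA and RPF/RNA, and it turned the median RPF/RNA change of the heart genes to -0.000973; 2 LOF/LOF embryos differ from the other 4 in this covariate, so that it overlaps with genotype. Surrogate variables raised the RPF calls to 23 heart genes, 16 further cardiac genes and 1252 transcripts, and were not run for RPF/RNA. Without a filter 437 transcripts were called in RPF. DESeq2 called 4 transcripts in RPF/RNA. Without length the wild-type RPF/RNA medians were 0.714 for transcription factors, 1.76 for the other heart genes and 0.827 for all transcripts. With each embryo left out in turn, calls ran from 0 to 22 heart genes, 0 to 19 further cardiac genes and 4 to 1449 transcripts in RPF, from 5 to 16, 2 to 6 and 138 to 594 in RNA, and from 0 to 26 transcripts in RPF/RNA. The cause of these changes was not tested.

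Replicate numbers pair no animals across genotypes (r = -0.0998 to 0.0815 between same-numbered embryos). With a replicate block 9 heart genes were called in RPF and 17 in RNA, and 313 and 528 transcripts in all. With the embryo block, no transcript was called in RPF/RNA.

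The 81 results of single genes, 29 of them called, had 1127 refits together, and no called result changed direction in its refits. Among the uncalled results, 16 refits did. With embryos left out in turn, Nkx2-5 RPF ran from -0.0358 to 0.201 (below 0 without wild-type or LOF/LOF replicate 2), Tcap RNA from -0.0313 to 0.431 (below 0 without LOF/LOF replicate 2), Atp2a2 RNA from -0.0126 to 0.0440 (below 0 without replicate 1 of either genotype), and, below 0 without LOF/LOF replicate 3, Hand1 RPF from -0.156 to 0.403, Wnt2 RPF from -0.174 to 0.312, Hand1 RNA from -0.0886 to 0.449 and Des RNA from -0.0330 to 0.346. With the Y-linked covariate Mef2c (-0.0525) and Atp2a2 (0.0194) changed sign in RPF and Mef2c (-0.000747) and Des (-0.00184) in RNA. Hand1 RNA did with limma-voom (-0.00178) and sva (-0.171), and Des RNA with sva (-0.0327).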

Other observations

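Some of the 5 smooth muscle genes, but not all, are also made by the early heart tube. In edgeR's quasi-likelihood test, 2 of the 5 rose in RPF (40%, against 1.05% of all transcripts) and none in RNA. An unadjusted p below 0.05 was reached by 4 in RPF and 1 in RNA (13.7% and 17% of all transcripts). All 5 RPF log2 fold changes were above 0, with a median of 0.41, and 4 of the 5 in RNA, with a median of 0.20. Acta2, smooth muscle alpha-actin, had 372, 379 and 392 RPF CPM in wild-type and 467, 465 and 481 in LOF/LOF embryos, with no overlap, and RNA CPM of 143, 132 and 153 in wild-type and 141, 172 and 173 in LOF/LOF embryos, where LOF/LOF replicate 1 lay within the wild-type range. Its log2 fold changes were 0.31 in RPF (standard error 0.06, FDR = 0.045) and 0.18 in RNA (standard error 0.09, FDR = 0.329). Cnn1, calponin, had 14.7, 15.6 and 16.6 RPF CPM in wild-type and 26.4, 21.4 and 21.9 in LOF/LOF embryos, a rise of 0.57 (standard error 0.12, FDR = 0.0585), and an RNA log2 fold change of 0.23 (standard error 0.10, FDR = 0.265). Neither was called in RPF/RNA. Acta2 and Cnn1 were named after their values were seen.

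None of 13 endothelial and endocardial genes was called (median log2 fold change 0.17 in RPF and 0.09 in RNA, with 2 and 1 at an unadjusted p below 0.05). None of 6 proepicardial genes was called either (medians 0.34 and 0.06, with 1 and 0 at an unadjusted p below 0.05). Of 11 skeletal muscle genes 5 were tested and none was called, none of them with an unadjusted p below 0.05. Of all transcripts 1.05% were called higher and 1.15% lower in RPF, and 1.77% and 3.25% in RNA. In edgeR's test 13.7% of all in RPF and 17% in RNA had an unadjusted p below 0.05. At these shares, lists this short can hold no call without differing from all transcripts. Among the regulators in the skeletal muscle list, Myod1 and Myog were at or near 0, with at most 0.697 CPM for Myod1 and 0.232 for Myog in any RPF library. The whole skeletal muscle list was not silent. It summed to 59.3, 64.4 and 61.2 RPF CPM in wild-type and 76.6, 70.0 and 60.1 in LOF/LOF embryos.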
